A study of Mus musculus with 10 samples.

Results

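The cytosolic ribosome of the mouse is built from a large and a small subunit, each a scaffold of ribosomal RNA carrying a fixed set of proteins encoded by Rpl and Rps genes. Their members were taken from the deposited gene table by name: symbols starting with Rpl or Rps and a digit, with Rplp0, Rplp1, Rplp2 and Rpsa, and without pseudogene names (-ps) or the Rps6k kinases. This gave 88 of 23510 genes. Of these, 46 encode canonical large-subunit proteins, 31 encode canonical small-subunit proteins, 10 are copies or paralogs of them, and 1, Rps19bp1, encodes a regulator that is no ribosomal protein. The naming rule leaves out Fau, in which a ribosomal protein is made as a fusion to a ubiquitin-like protein, and its values are given with those of the copies.

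Lymphatic endothelial cells (LEC), the lining cells of lymphatic vessels, were isolated by cell sorting from C57BL/6N mice bearing MT-ret melanomas. The anti-Ang2 group, 5 mice, was injected intraperitoneally with an antibody that targets angiopoietin-2 (Ang2), which binds the endothelial receptor Tie2, and the IgG group, 5 mice, was injected with control IgG by the same route. All mice carried the melanoma and were killed after 12 h, so no untreated or tumour-free group is part of the comparison. Each mouse gave 1 library from 0.5 ng of total RNA, amplified as full-length cDNA, and the library totals ran from 38090933 to 83850341 gene counts. Levels of a gene between libraries are given as CPM, its counts scaled by the library total and the TMM factor.

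Ribosomal protein genes are among the most uniformly regulated genes of the mammalian genome. Most of their mRNAs start with a C followed by a run of pyrimidines, the 5′ terminal oligopyrimidine (TOP) tract, through which the kinase complex mTORC1 controls their translation without a change in mRNA level. Most of the genes also have many processed pseudogenes, and a read that fits several of these places cannot be assigned to one gene by its sequence. In endothelial cells, as in other cells, ribosome production is known to rise with growth and division.

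The start of 6 members in RefSeq (build GRCm38.p6) is shown first, because the TOP tract is the feature that defines how these mRNAs are controlled. Each line gives the 15 bases before the annotated start and the 15 bases from it, 5′ to 3′ on the strand of the gene, and the capitals mark a TOP tract that begins at the annotated start. The first 5 carry such a tract, and Rpl37, shown for contrast because its CPM did not overlap between the groups, does not at this annotated start. In the GENCODE M21 annotation Rpl37 starts downstream of the window shown, at chr15:5116645. The bases at that other start were not examined, so the window does not settle whether its mRNA has a TOP tract. For Rpl14, Rpl15, Rplp2 and Rps6 the outermost GENCODE M21 start lies upstream of the window shown, and the bases there were not examined either. The positions of the 6 windows, in the order of the lines below, are chr9:120571502-120571531 on the plus strand, chr14:18270972-18271001 on the minus strand, chr7:141447636-141447665 on the plus strand, chr3:90213634-90213663 on the minus strand, chr4:86857353-86857382 on the minus strand and chr15:5116598-5116627 on the plus strand.
Rpl14: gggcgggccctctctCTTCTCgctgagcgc
Rpl15: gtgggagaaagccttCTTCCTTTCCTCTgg
Rplp2: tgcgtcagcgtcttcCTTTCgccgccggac
Rps27: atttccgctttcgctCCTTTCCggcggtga
Rps6: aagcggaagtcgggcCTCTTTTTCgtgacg
Rpl37: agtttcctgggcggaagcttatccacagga

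A start was found in the RefSeq promoter table for 34 of the 46 large-subunit and 23 of the 31 small-subunit genes. A TOP tract, counted as C at the first base followed by at least 4 pyrimidines, lay at the annotated start of 7 large-subunit genes (20.6%) and 6 small-subunit genes (26.1%), against 813 of all 27025 genes in that table (3.01%). When the tract could begin within 5 bases of the annotated start, the shares were 47.1%, 47.8% and 21.2%. None of the 69 matched genes for mitochondrial ribosomal proteins, which serve the separate ribosome of the mitochondrion, had a tract at the first base, and 24.6% had one within 5 bases. In the 250 bases before the start, the motif CCGGAAG, searched on both strands, occurred in 8 large-subunit genes (23.5%) and 10 small-subunit genes (43.5%), against 7.83% of all promoters and 26.1% of those of mitochondrial ribosomal protein genes. The motif CACGTG, on both strands, occurred in 11.8% and 4.35%, against 6.86% of all promoters. TATAAA, on both strands, occurred in 5.88% and 4.35%, against 14.3%. None of the 3 motifs is contained in another, CACGTG reads the same on both strands, and a match describes the letters only.

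Before the comparison, the level of each member was read from the deposited FPKM, which scale counts by exon length and library size. Over the 10 libraries the mean FPKM of large-subunit genes ran from 0.200 for Rpl23a to 233 for Rpl8, with a median of 6.77. Small-subunit genes had a median of 7.92 and were lowest for Rpsa, at 0.931. The products of these genes are present in 1 ribosome in equal numbers, apart from the stalk proteins, yet the mRNA levels within each subunit spanned a wide range. In the large subunit, Rpl8, which lies near the peptidyl transferase centre, and Rpl4, which lines the exit tunnel (195 FPKM), stood above Rplp0 (128) and Rplp1 (125), proteins of the stalk that recruits translation factors, and above Rpl32 (93.3). In the small subunit, Rps14 (94.9), Rps15 (78.6), Rps3 (75.4) and Rps9 (56.2) were among the highest. Rps15 and Rps3 differed from each other by less than their spread between libraries (IgG group, 73.6 ± 9.69 and 74.2 ± 5.82 FPKM, SD, n = 5).

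At the other end, 5 large-subunit and 3 small-subunit genes had a mean under 1 FPKM. The 5 were Rpl23a, Rpl24 (0.404), Rpl21 (0.681), Rpl5 (0.691) and Rpl36a (0.767), and the 3 were Rpsa, Rps16 (0.941) and Rps29 (0.949). Rpl5 is a core protein of the ribosome that binds the 5S rRNA. The order depends on the exon length behind the FPKM, which was between 0.503 (Rps24) and 6.56 (Rpl35a) times the length of the main annotated transcript. Per kilobase of main transcript the large subunit began with Rpl4, Rpl8 and Rplp0, and in the small subunit Rps3 preceded Rps14 and Rps9.

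The level of a member was lower where more of its sequence is shared with other genes. For each member, the share of 50-base stretches of its main transcript that also occur in transcripts of other annotated genes was counted, on both strands. The median share was 52.1% in the large subunit, from 5.2% in Rpl22 to 95.1% in Rpl35. In the small subunit it was 51.7%, with the highest share, 98.6%, in Rps27, and among mitochondrial ribosomal protein genes it was 2.84%. The 9 members with under 25% shared sequence had a median of 33.4 FPKM, the 28 with 25 to 50% had 16.8, the 20 with 50 to 75% had 7.25, and the 20 with over 75% had 2.92. No member with over 75% exceeded 12.5 FPKM. Across the 77 members, Spearman's rho of mean FPKM with the shared share was -0.46 and Pearson's r of its log2 was -0.48; genes of 1 set of libraries are not independent replicates, and this is a description. How reads that fit several genes were counted is not given in the sources used here, and the part of such counting in these levels was not tested. The values of members with much shared sequence, such as Rps27, Rpl35, Rpl5 and Rps6 (84.6%), are therefore uncertain.

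**Figure D1:**
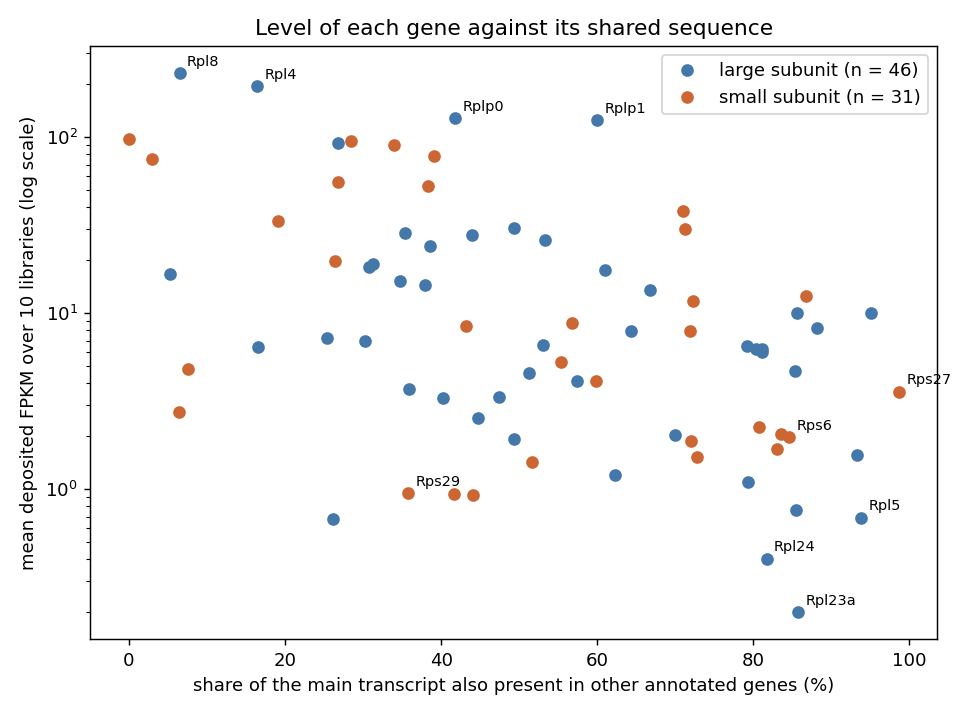
Mean deposited FPKM over the 10 libraries (vertical axis, log scale) against the percentage of the main transcript that also occurs in other annotated genes (horizontal axis), with 1 point for each of 46 large-subunit and 31 small-subunit genes. Points at the left reach 233 FPKM (Rpl8), and no point beyond 75% exceeds 12.5 FPKM.

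The comparison of anti-Ang2 with IgG asks whether blocking Ang2 for 12 h changed the mRNA of the ribosome. With edgeR's quasi-likelihood test and an adjusted p under 0.05, none of the 45 tested large-subunit genes and none of the 31 small-subunit genes was called, while 671 of all 16240 tested genes (4.13%) were: 217 higher (1.34%) and 454 lower (2.8%). Rpl23a, with 2 to 22 counts, did not pass the filter on low counts and was not tested. In bulk RNA of sorted cells, fewer cells of a type and less RNA per cell cannot be told apart. At an unadjusted p under 0.05, 6 large-subunit genes were higher and 1 was lower (15.6%), and 2 small-subunit genes were higher and 0 lower (6.45%). Over all tested genes this share was 18.2%, with 9.14% higher and 9.1% lower. On the higher side alone, 6 of 45 large-subunit genes is a larger share than that background and 2 of 31 small-subunit genes a smaller one, and no test of either difference was made. DESeq2 called 2 large-subunit genes, Rpl34 (adjusted p = 0.0366) and Rpl37 (0.0275), and 1 small-subunit gene, all higher, against 5.46% of all genes called higher by that tool. The authors' deposited table also called Rpl34 and Rpl37 (adjusted p = 0.0432 and 0.0324) and 1 small-subunit gene higher, against 4.25% of its genes called higher and 9.09% called in either direction.

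The fold changes were small and lay mostly on the positive side. The median log2 fold change, anti-Ang2 over IgG, was 0.12 in the large subunit and 0.11 in the small subunit, beside 0.01 over all tested genes. It was positive for 35 of 45 large-subunit genes (77.8%) and 23 of 31 small-subunit genes (74.2%), beside 52.0% of all genes. The small-subunit median fell to 0.04 without the anti-Ang2 libraries 4 and 5, whose quality weights were the lowest, and the large-subunit median to 0.08, while the median of all genes was then -0.03. With the summed melanoma markers as a covariate the medians were 0.18 and 0.20. Log2 fold changes ran from -0.30 to 0.54 in the large subunit and from -0.28 to 0.49 in the small subunit, and no test of the difference between the subunits was made.

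**Figure D2:**
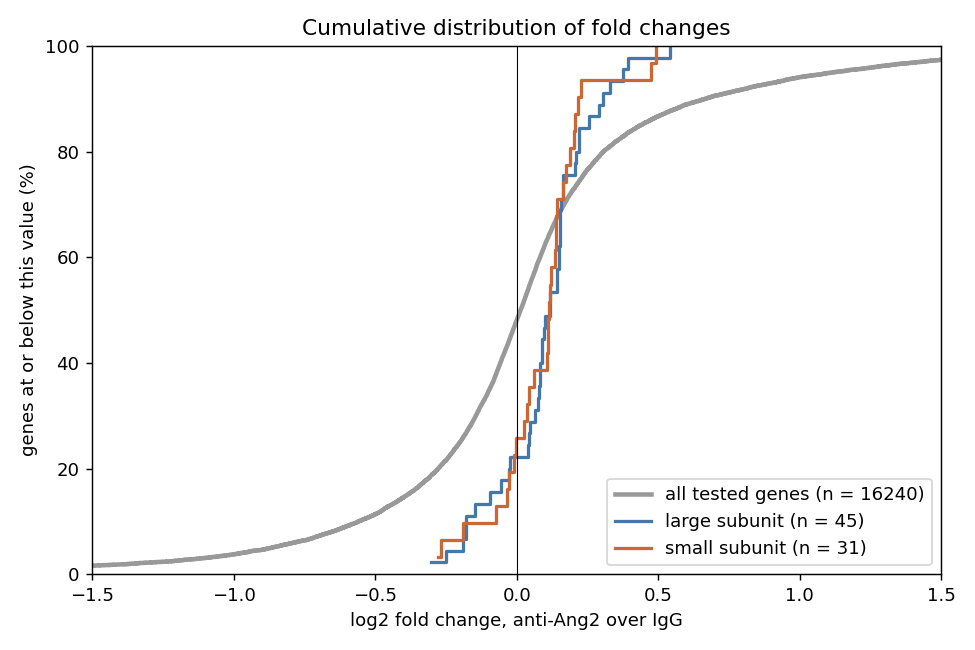
Cumulative share of genes (vertical axis, percent) at or below each log2 fold change, anti-Ang2 over IgG (horizontal axis), for all 16240 tested genes, 45 large-subunit genes and 31 small-subunit genes. Both subunit curves are steeper than that of all genes and cross 50% near 0.12 and 0.11, to the right of the curve of all genes, which crosses near 0.01.

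The intervals say how large a change the data still allow. The 95% interval of the fold change lay within 2-fold in either direction for 42 of 45 large-subunit and 29 of 31 small-subunit genes, and within 1.5-fold for 34 and 20. Rpl4 had the narrowest (0.959-fold to 1.15-fold) and Rpl24 the widest (0.362-fold to 1.81-fold). The standard error ran from 0.061 to 0.53 on the log2 scale in the large subunit and from 0.066 to 0.39 in the small subunit, and it followed the depth. Across the 76 tested members, Spearman's rho of the standard error with the mean CPM of the IgG group was -0.97. The median standard error rose from 0.09 in members with under 25% shared sequence to 0.25 in those with over 75%.

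**Figure D3:**
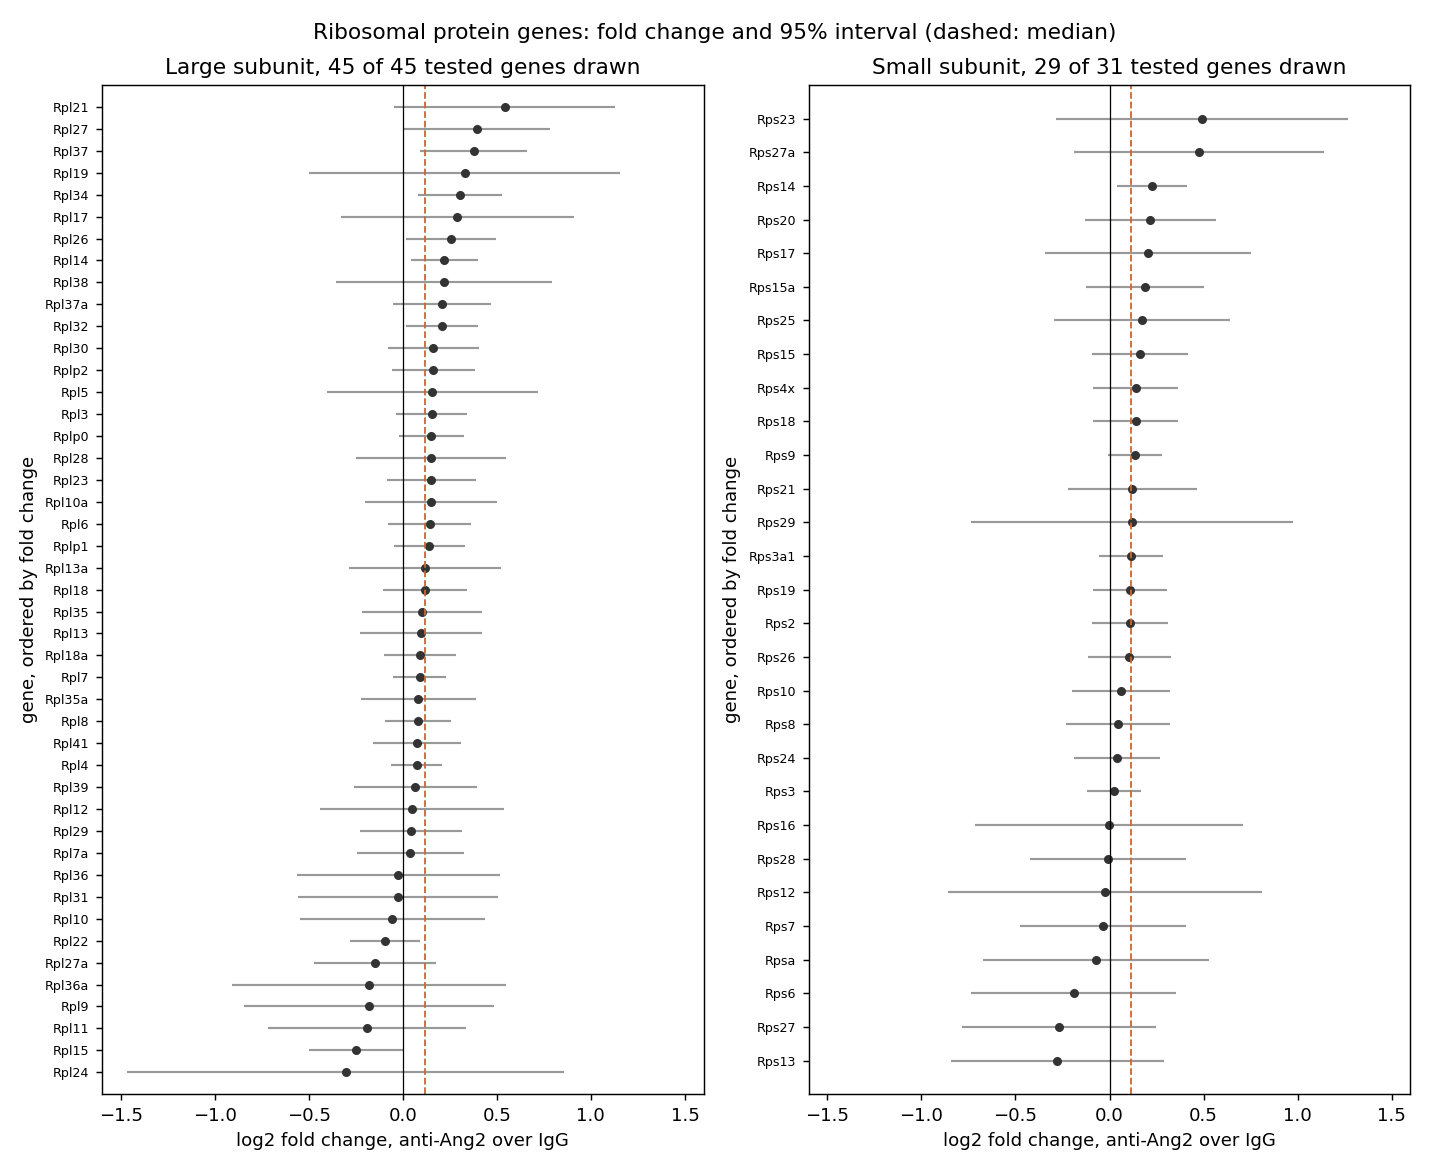
Log2 fold change, anti-Ang2 over IgG (horizontal axis), of each tested large-subunit gene (left, 45) and of 29 of the 31 tested small-subunit genes (right), ordered by value, with bars for the 95% interval from edgeR's quasi-likelihood fit and a dashed line at the median. Most points lie to the right of 0, between -0.30 and 0.54, and the widest bar is that of Rpl24.

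Summed over a subunit as CPM, the libraries of the groups nearly separated. Large-subunit genes took 1630, 1599, 1614, 1447 and 1533 CPM in the IgG libraries 1 to 5 and 1608, 1711, 1779, 1706 and 1660 CPM in the anti-Ang2 libraries 1 to 5. Small-subunit genes took 1227, 1231, 1215, 1094 and 1105 CPM in IgG and 1217, 1262, 1310, 1277 and 1301 CPM in anti-Ang2. In both subunits anti-Ang2 1 lay within the IgG range, the other 4 anti-Ang2 libraries lay above it, and IgG 4 was the lowest of all 10. In IgG 4, 9 of 45 large-subunit and 5 of 31 small-subunit genes were above their own mean over the libraries, and in anti-Ang2 3 these were 37 and 22. Both subunits together held 0.272% ± 0.0165 of all counts in IgG and 0.299% ± 0.0132 in anti-Ang2 (SD, n = 5 each). By this share, which is not TMM-scaled, both anti-Ang2 1 (0.286%) and anti-Ang2 2 (0.283%) lay within the IgG range (0.253% to 0.291%). The ratio of large-subunit to small-subunit counts stayed between 1.28 and 1.39, with 1.33 ± 0.0325 in IgG and 1.33 ± 0.0337 in anti-Ang2. The sums rest mostly on few genes: 3 large-subunit and 4 small-subunit genes had a mean of 100 CPM or more, beside medians of 15.7 and 16.4 CPM. Near separation was not particular to the ribosomal proteins. The summed genes of RNA polymerases I and III, a list described below, did not overlap (IgG 1268 to 1308 CPM, anti-Ang2 1338 to 1398.5 CPM). Sums of mitochondrial ribosomal proteins overlapped (2526 to 2775 and 2647 to 2900 CPM). All these sums are a description of chosen genes and carry no p.

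The sums of melanoma and macrophage markers had higher means in the anti-Ang2 group, and their part in the values above was not tested beyond the covariate fits. Marker sums of fibroblasts (433 ± 299 and 413 ± 226 CPM), T cells (9.09 ± 3.12 and 7.54 ± 3.87) and keratinocytes (2.05 ± 1.03 and 1.65 ± 0.338) had slightly lower means in anti-Ang2. These values are for IgG and anti-Ang2 (SD, n = 5 each), and the ranges of the groups overlapped. The 12 melanoma markers summed to between 269.9 and 1873 CPM in the IgG libraries and between 1144 and 5616 CPM in the anti-Ang2 libraries. All 12 had positive log2 fold changes, with a median of 1.75, and 1, Pmel, was called by edgeR. At an unadjusted p under 0.05 in edgeR's quasi-likelihood test 10 of the 12 were higher (83.3%, beside 18.2% of all tested genes in either direction). The 15 macrophage markers summed to between 29.4 and 217 CPM and between 49.6 and 302 CPM, with 0 of 13 tested called by edgeR and 4 higher at an unadjusted p under 0.05. No marker on either list had a mean of 0 in a group, and Itgam and Cx3cr1 were too low to be tested. The 8 LEC markers summed to between 11748 and 13392 CPM in IgG and between 10107 and 14010 CPM in anti-Ang2. Of the 8, Ccl21a, a chemokine of lymphatic vessels, was called lower (log2 fold change -1.22, edgeR quasi-likelihood adjusted p = 0.0045), and at an unadjusted p under 0.05 there were 2 higher and 3 lower, with a list median of -0.16. For Ccl21a, 71.6% of the main transcript is shared with 4 other genes, so its value is uncertain. Anti-Ang2 1, with the highest melanoma sum (5616 CPM), had the lowest ribosomal protein sums of its group, and anti-Ang2 3, with the next highest melanoma sum (4596 CPM) and the highest macrophage sum (302 CPM), had the highest. With the melanoma sum or the macrophage sum as a covariate, edgeR's quasi-likelihood test called 0 members in either subunit.

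Among the large-subunit genes, Rpl34 had the smallest p (0.0119 before adjustment, edgeR quasi-likelihood adjusted p = 0.128). Its gene lies at chr3:130726831-130730398 (GENCODE M21 on mm10), and 37.9% of its main transcript is shared with other genes. It was at 36.1, 35.0, 31.7, 29.95 and 32.9 CPM in the IgG libraries and at 35.7, 37.8, 46.8, 38.3 and 46.0 CPM in the anti-Ang2 libraries. The groups overlapped only through IgG 1 and anti-Ang2 1, and anti-Ang2 3 and 5 were the highest. Its log2 fold change was 0.30 ± 0.10 (SE; edgeR quasi-likelihood adjusted p = 0.128; 95% interval 0.08 to 0.53).

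Rpl37, a small zinc-binding protein of the large subunit, was the only large-subunit gene whose groups did not overlap upward (1 of 45, beside 2.34% of all tested genes, and 6.1% in either direction; in the small subunit the count was 1 of 31). Its gene lies at chr15:5116645-5119140. It was at 15.8, 14.6, 13.6, 11.3 and 14.3 CPM in IgG and at 17.3, 18.3, 17.2, 16.2 and 21.5 CPM in anti-Ang2. The lowest anti-Ang2 library lay just above the highest IgG library, and anti-Ang2 5 was the highest. The log2 fold change was 0.38 ± 0.13 (SE; edgeR quasi-likelihood adjusted p = 0.138).

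Rpl14, whose start is printed above with its TOP tract, stood at 48.4, 42.7, 49.0, 43.0 and 41.7 CPM in IgG and at 48.9, 48.8, 55.5, 53.0 and 55.8 CPM in anti-Ang2. IgG 3 lay just above anti-Ang2 1 and 2, so the groups overlapped narrowly. The log2 fold change was 0.22 ± 0.08 (SE; edgeR quasi-likelihood adjusted p = 0.166). Rpl15 was the 1 large-subunit gene with an unadjusted p under 0.05 on the lower side, and its longer TOP tract is also printed above. It was at 18.5, 16.6, 15.5, 18.2 and 18.5 CPM in IgG and at 13.8, 14.4, 15.02, 16.8 and 13.4 CPM in anti-Ang2. Anti-Ang2 4 lay within the IgG range and the other 4 below it. The log2 fold change was -0.25 ± 0.11 (SE; edgeR quasi-likelihood adjusted p = 0.274). Rpl22 (-0.09 ± 0.09), an RNA-binding protein that many mouse cells can do without, and Rpl27a (-0.15 ± 0.15) had the next smallest p among the genes with negative values.

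Of the 2 most abundant large-subunit mRNAs, both read at high depth, Rpl4 had a narrow spread in both groups. Rpl8 had one in IgG only and lay near the subunit median in anti-Ang2. In IgG and anti-Ang2 the SD was 3.03% and 4.31% of the mean for Rpl4, and 5.70% and 9.68% for Rpl8. The median over the tested large-subunit genes was 11.4% and 10.2%. Rpl4 was at 381, 360, 379, 364 and 357 CPM in IgG and at 376, 404, 395, 397 and 364 CPM in anti-Ang2. The groups overlapped, and its log2 fold change was 0.07 ± 0.06 (SE; edgeR quasi-likelihood adjusted p = 0.596). Rpl8 was at 188 ± 10.7 CPM and 199 ± 19.3 CPM (SD, n = 5 each), and the groups overlapped.

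The stalk proteins Rplp0, Rplp1 and Rplp2, which bring elongation factors to the ribosome, had log2 fold changes of 0.15 ± 0.08, 0.14 ± 0.09 and 0.16 ± 0.10 (SE; edgeR quasi-likelihood adjusted p = 0.353, 0.438 and 0.446). Rplp0, a frequent reference gene in PCR, was at 206, 206, 187, 177 and 198 CPM in IgG and at 216, 226, 238, 214 and 188 CPM in anti-Ang2. Of the anti-Ang2 libraries, only number 5 lay within the IgG range. Rpl5 and Rpl11 form a particle with 5S rRNA that also binds the p53 regulator Mdm2. Both were low: Rpl5 had a mean of 2.47 ± 0.656 CPM in the IgG group and 2.76 ± 0.121 CPM in the anti-Ang2 group, and Rpl11 one of 3.33 ± 0.603 and 2.92 ± 0.612 CPM (SD, n = 5 each). Their log2 fold changes, 0.16 ± 0.26 and -0.19 ± 0.24 (SE), had intervals from -0.40 to 0.72 and from -0.71 to 0.34, and 93.8% and 62.2% of their main transcripts are shared with other genes.

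Among the small-subunit genes, Rps14, a platform protein whose human counterpart is lost in the 5q- syndrome, was at 124, 130, 122, 98.4 and 109 CPM in IgG and at 139, 128, 147, 136 and 134 CPM in anti-Ang2. The groups overlapped only through IgG 2 and anti-Ang2 2. Its log2 fold change was 0.23 ± 0.09 (SE; edgeR quasi-likelihood adjusted p = 0.178). Rps9, which sits where mRNA enters, had 0.14 ± 0.07 (adjusted p = 0.313). On the negative side Rps13 (-0.28 ± 0.26), Rps27 (-0.27 ± 0.24) and Rps6 (-0.19 ± 0.25) had the smallest p, with edgeR quasi-likelihood adjusted p of 0.656, 0.625 and 0.773. Their mean was under 5 CPM in both groups, and 83.0%, 98.6% and 84.6% of their main transcripts are shared with other genes. Rps6 is the protein that S6 kinases phosphorylate. Rps19, the gene most often mutated in Diamond-Blackfan anaemia, was at 36.7 ± 3.19 and 39.6 ± 2.89 CPM, and Rpsa, also known as the laminin receptor, at 2.92 ± 0.904 and 2.78 ± 0.476 CPM (IgG and anti-Ang2, SD, n = 5 each). The difference in Rps19 was close to the SD between libraries and that in Rpsa smaller than it.

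**Figure D4:**
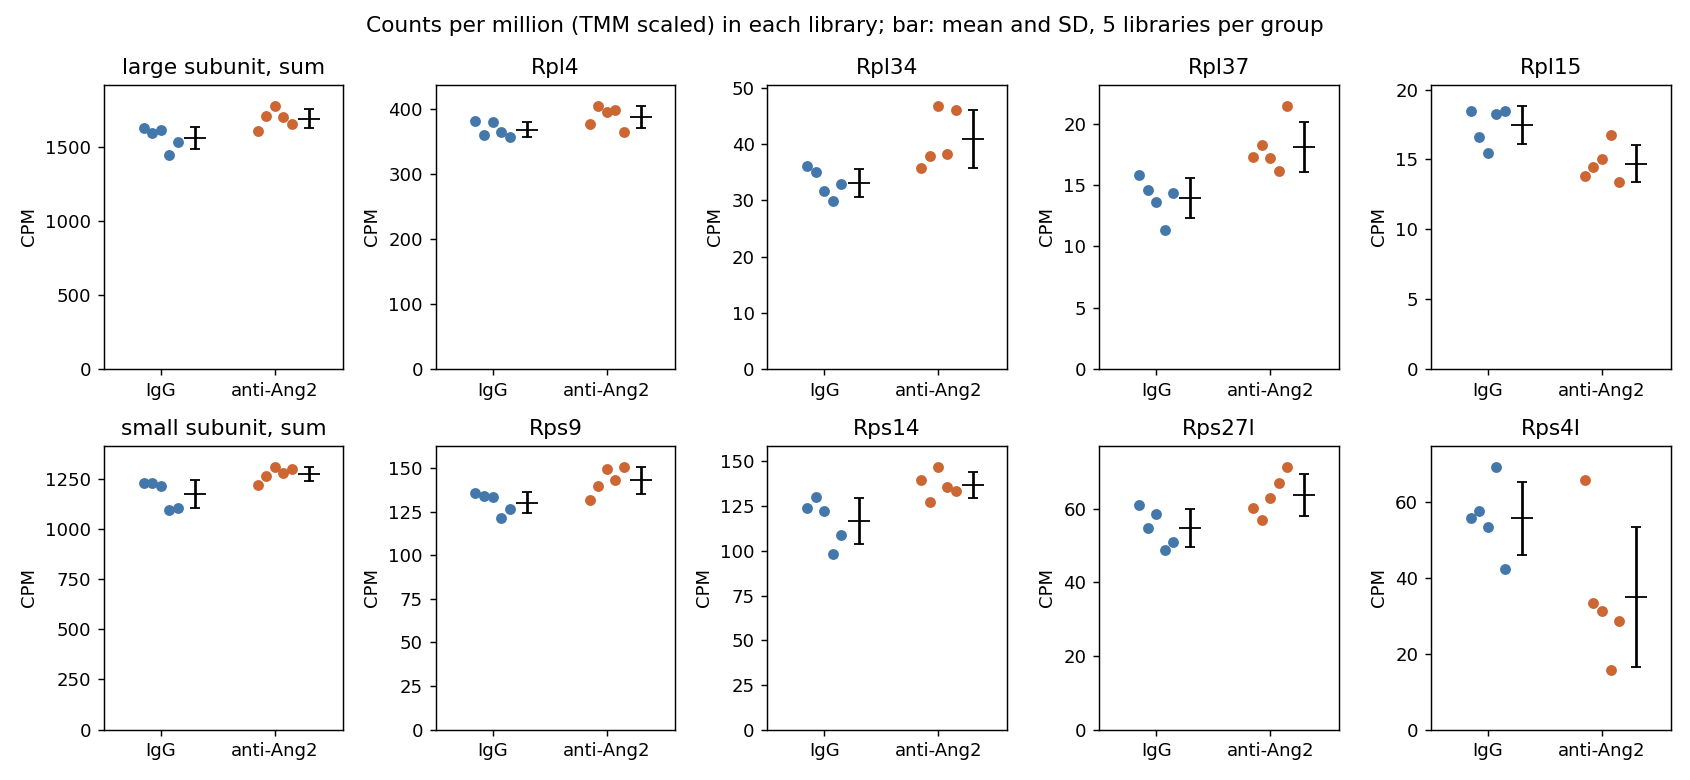
CPM scaled by the TMM method (vertical axes, starting at 0) in each of 5 IgG and 5 anti-Ang2 libraries, for the sum of each subunit and for 8 members, with the mean and SD beside the points. Rpl37 has no overlap between the groups, Rpl4 overlaps widely, and Rps4l spreads from 15.8 to 65.9 CPM in anti-Ang2.

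The 10 copies and paralogs differ from the canonical genes in sequence and place, and 8 of them passed the filter on low counts. None was called by edgeR's quasi-likelihood test, and 1 was higher and 1 lower at an unadjusted p under 0.05. In every library 4 of the 8 exceeded, per length, the gene they resemble. Rps27l, a paralog of Rps27 known as a p53 target, had a mean of 75.4 FPKM against 3.596 for Rps27, and the ratio ran from 14.4 to 21.3 in IgG and from 21.7 to 30.2 in anti-Ang2. The divisor of this ratio, Rps27, had only 116 to 346 counts per library. The CPM of each of these genes overlapped between the groups. How often ratios of other gene pairs separate was not counted, and no test of the ratio was made. Rpl36al, a retrogene, had 12.96 FPKM against 0.767 for Rpl36a, Rpl7l1 had 44.4 against 26.1 for Rpl7, and Rps4l had 49.8 against 11.8 for Rps4x. In each of these pairs the canonical gene shares more of its main transcript with other genes than the copy does. The shares are 98.6% for Rps27 against 22.4% for Rps27l, and 85.5% for Rpl36a against 24.9% for Rpl36al. For Rpl7 and Rpl7l1 they are 53.3% and 9.19%, and for Rps4x and Rps4l 72.2% and 14.9%. The part of shared reads in these ratios was not tested. The other 4 stayed below their counterparts in all 10 libraries. These were Rpl22l1 (4.02 FPKM against 16.7 for Rpl22), Rps27rt (2.42 against 3.596 for Rps27), Rpl37rt (1.86 against 19.2 for Rpl37) and Rpl3l (0.339 against 10.0 for Rpl3), the form known from heart and skeletal muscle. Among these pairs too, Rps27 (98.6%) and Rpl3 (85.6%) share more of their main transcripts with other genes than Rps27rt (91.1%) and Rpl3l (0%). Rpl22 (5.2%) and Rpl37 (31.3%) share less than Rpl22l1 (65.6%) and Rpl37rt (42.5%). Rpl39l, with 0 to 124 counts, and Rps3a3, with 0 to 5, were not tested.

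The 30-base window at positions 6 to 35 of the coding sequence, counted from the A of the start codon as 1, shows where Rps27l departs from Rps27 and that Rps27rt has the same letters as Rps27. Capitals mark the bases at which Rps27 and Rps27l differ, 13 in this window, and the transcripts are those of GENCODE M21.
Rps27: TctCgcAaAGgatctCCtTcaTccCtcTCC
Rps27l: CctGgcTaGAgatctGTtAcaCccTtcCTT
Rps27rt: TctCgcAaAGgatctCCtTcaTccCtcTCC
Over the whole coding sequence of 252 bases, Rps27 and Rps27l differ at 60 positions (76.2% identity) and Rps27 and Rps27rt at 0. The counts of Rps27 and Rps27rt are therefore uncertain, while 22.4% of the main transcript of Rps27l is shared with other genes. Rpl36a and Rpl36al differ at 39 of 318 coding bases (87.7% identity).

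Rps27l was at 61.1, 54.6, 58.6, 48.8 and 50.9 CPM in IgG and at 60.3, 56.9, 62.9, 66.9 and 71.4 CPM in anti-Ang2. Anti-Ang2 1 and 2 lay within the IgG range and the other 3 above it. Its log2 fold change was 0.22 ± 0.09 (SE; edgeR quasi-likelihood adjusted p = 0.228). Rps4l, annotated as a transcribed processed pseudogene at chr6:148354656-148355598, was at 56.0, 57.7, 53.5, 69.4 and 42.3 CPM in IgG and at 65.9, 33.5, 31.4, 15.8 and 28.6 CPM in anti-Ang2. Anti-Ang2 1 lay within the IgG range and the other 4 lay below all IgG libraries. Its log2 fold change was -0.67 ± 0.30 (SE; edgeR quasi-likelihood adjusted p = 0.263), and without anti-Ang2 1 it was -1.03 (adjusted p = 0.032). Over all fits with 1 library left out it ran from -1.03 to -0.48, with edgeR quasi-likelihood adjusted p from 0.032 to 0.442. Rpl7l1 had a log2 fold change of 0.00 ± 0.09 and a 95% interval from -0.20 to 0.21. Rps19bp1, the member that is no ribosomal protein and is known as a regulator of the deacetylase SIRT1, had 0.31 ± 0.15 (SE; edgeR quasi-likelihood adjusted p = 0.304). Outside the naming rule, Fau (1.12 ± 0.316 and 1.34 ± 0.441 CPM, IgG and anti-Ang2, SD, n = 5 each) differed by less than the SD between libraries. The 92 rows with pseudogene names summed to between 17.9 and 22.7 CPM in IgG and between 18.1 and 29.1 CPM in anti-Ang2, and 0 of the 28 tested were called, nor did any pass an unadjusted p under 0.05 in edgeR's quasi-likelihood test.

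Genes that make, regulate or resemble the ribosome were read from lists of textbook members. Ribosome assembly factors (73 tested, median log2 fold change 0.07) had 0 genes called, and at an unadjusted p under 0.05 there were 8 higher and 1 lower. Other translation factors (38 tested, median 0.06) had 0 called and 7 higher at an unadjusted p under 0.05, and other genes known for TOP mRNAs (19 tested, median 0.02) had 0 called and 1 higher. Mitochondrial ribosomal proteins (77 tested, median 0.05) had 0 called, and 9 were higher and 0 lower at an unadjusted p under 0.05. Nearly all of the genes under that unadjusted p were on the higher side, where the background over all tested genes is 9.14% (18.2% in both directions). In both directions the lists, in the order above, had shares of 12.3%, 18.4%, 5.26% and 11.7%, and whether they differ from the background was not tested. Of all their tested genes, 67.1%, 68.4%, 57.9% and 67.5% had a positive log2 fold change, beside 52.0% of all tested genes. MYC and its network partners, transcription factors known to drive ribosome production, had a median of -0.17 over 11 tested genes with 0 called and 2 lower at an unadjusted p under 0.05. All these counts are from edgeR's quasi-likelihood test.

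RNA polymerases I and III, which transcribe ribosomal RNA, had 1 of 34 genes called, near the background of 4.13% (1.34% higher). It was Maf1, the repressor of RNA polymerase III. Maf1 was at 173, 170, 146, 155 and 172 CPM in IgG and at 213, 195, 204, 203 and 192 CPM in anti-Ang2, with no overlap. Its log2 fold change was 0.30 ± 0.07 (SE; edgeR quasi-likelihood adjusted p = 0.0341). That call was lost, at an adjusted p of up to 0.096, when any 1 library other than IgG 1 or anti-Ang2 5 was left out, and also without the filter on low counts (0.0612).

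The mTORC1 and S6 kinase list had 3 of 29 genes called, 1 higher and 2 lower, beside 4.13% of all tested genes (1.34% higher and 2.8% lower). Rragd, a Rag GTPase that brings mTORC1 to the lysosome, was at 1.02, 1.799, 1.75, 2.86 and 1.15 CPM in IgG and at 8.46, 11.8, 3.40, 3.95 and 5.69 CPM in anti-Ang2. All anti-Ang2 libraries were above all IgG libraries, and the log2 fold change was 1.96 ± 0.41 (SE; edgeR quasi-likelihood adjusted p = 0.0227). The call was lost without IgG 2, 3 or 5 or anti-Ang2 1 or 2 (adjusted p of up to 0.065). Rps6ka1, a p90 kinase downstream of ERK that can phosphorylate Rps6, was at 66.5, 68.8, 78.8, 62.5 and 66.4 CPM in IgG and at 47.0, 44.0, 39.6, 53.7 and 47.1 CPM in anti-Ang2, again with no overlap. It fell by 0.57 on the log2 scale (SE 0.10; edgeR quasi-likelihood adjusted p = 0.00721), and the call held without any 1 library (adjusted p 0.0065 to 0.023). Its relative Rps6ka3 was at 55.1, 70.5, 71.4, 87.2 and 64.7 CPM in IgG and at 40.9, 44.3, 26.9, 55.5 and 35.6 CPM in anti-Ang2, where IgG 1 and anti-Ang2 4 overlapped. Its log2 fold change was -0.78 ± 0.18 (SE; edgeR quasi-likelihood adjusted p = 0.0349), and the call was lost without any 1 library other than IgG 1 or anti-Ang2 4 (adjusted p of up to 0.088). With the melanoma marker sum as a covariate none of the 4 was called (adjusted p 0.170 to 0.309), nor with the macrophage marker sum (0.0739 to 0.324) or without anti-Ang2 1, 2 and 3 (0.118 to 0.225). The directions held: with the melanoma and macrophage sums the log2 fold change was 1.41 and 2.39 for Rragd, -0.42 and -0.52 for Rps6ka1, -0.83 and -0.63 for Rps6ka3 and 0.25 and 0.24 for Maf1, while calls over all genes fell to 24 higher and 91 lower, and to 26 and 100. The mRNA of the target of the antibody, Angpt2, had a mean of 769 ± 279 CPM in the IgG group and 3222 ± 533 CPM in the anti-Ang2 group (SD, n = 5 each; log2 fold change 2.07 ± 0.22, edgeR quasi-likelihood adjusted p = 0.00100).

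**Figure D5:**
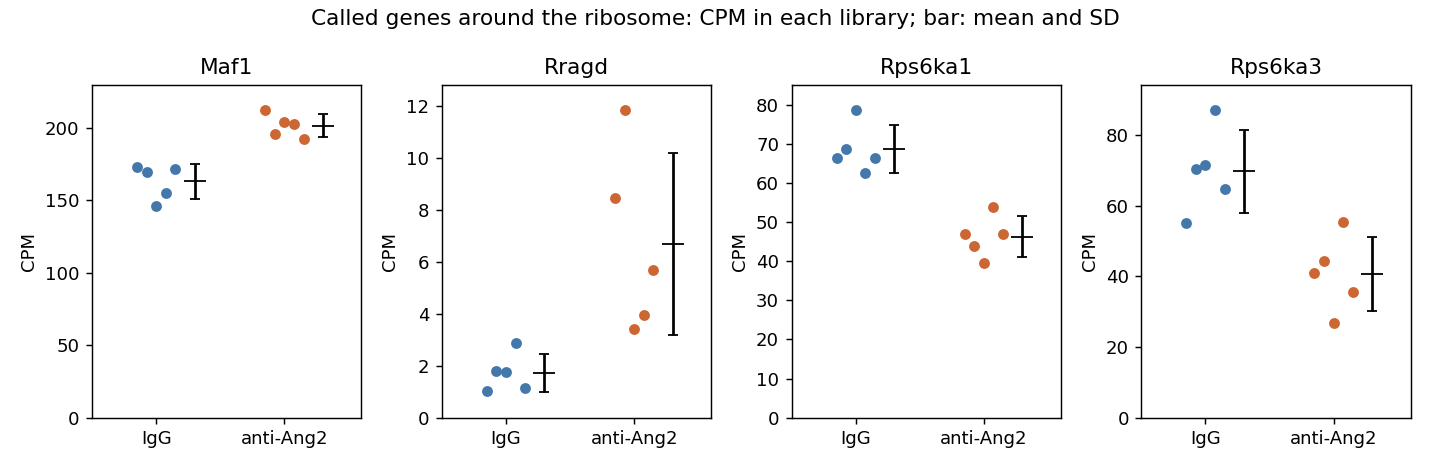
TMM-scaled CPM (vertical axes, starting at 0) of the 4 called genes of the companion lists in each of 5 IgG and 5 anti-Ang2 libraries, with the mean and SD beside the points. Maf1 and Rragd are higher and Rps6ka1 lower in every anti-Ang2 library than in every IgG library, and Rps6ka3 overlaps through IgG 1 and anti-Ang2 4.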

How the data were processed

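RNA-seq of 10 libraries, 1 per mouse, was analysed from 1 table. The submitters' processing notes name STAR, featureCounts, DESeq2 and mm10. Versions, the annotation, the strand setting and the handling of reads that fit several genes are not given in the sources used here. Per the file headers, the table holds raw gene counts, and each test started from these. The authors deposited FPKM per library, used for levels between genes, and values headed TPM, treated as a score because their sums exceed what defines TPM, and not used. The deposited mean of scaled counts (baseMean), a signal, was not used. Log2 fold changes and p-values that the authors deposited are quoted only as theirs. There were 0 unused columns of per-sample values.

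Counts were tested with edgeR 4.0.16 in R 4.3.3 (two-sided quasi-likelihood F test on treatment alone, TMM). The filterByExpr settings were min.count 10 and min.total.count 15. Genes under 0.05 after Benjamini-Hochberg adjustment over 16240 genes were called. DESeq2 1.42.0, limma-voom (limma 3.58.1), other scalings, no filter, marker sums as covariates, a replicate block and left-out libraries were alternatives. The edgeR step was tested on simulated data. Intervals are 95% intervals from the standard error of the edgeR fit. Library totals ran from 38090933 to 83850341 counts, and reads carry no molecular identifiers. The series design states independent biological replicates.

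Members and lists were chosen with earlier results of these data known, and Rpl37rt and Rps3a3 were placed among the copies after the table was seen. Genes named are the members called, the 3 of smallest p in each direction and the 3 of highest FPKM in each subunit, members named for their role, copies with their counterparts, and genes called in the companion lists. Other members are named for their level, and were chosen after their values were seen. Some genes that this rule names are not reported here. Gene positions and transcripts are from GENCODE M21, and starts from RefSeq. Numbers shared between the groups did not pair the libraries.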

Additional observations from a re-analysis of the deposited data

Results flagged for a closer look

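In the group of 5 anti-Ang2 libraries, Rpl11 had 1 library far from the others: anti-Ang2 5 was at 4.01 CPM and the other 4 between 2.52 and 2.72 CPM. Rplp2 likewise had 1 low library in that group, anti-Ang2 1 at 36.1 CPM, with the other 4 between 39.0 and 39.9 CPM. The gap to the nearest library exceeded Dixon's 95% critical value in these 2 of 84 groups of 5 values tested, and chance gives about 1 in 20.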

How the results depend on the processing

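Under DESeq2, 2 large-subunit and 1 small-subunit genes were called higher, and over all genes 810 higher and 880 lower; in the other alternatives, with edgeR's quasi-likelihood test or limma-voom, no canonical member was called. Over all genes, limma-voom with quality weights called 670 higher and 780 lower, the melanoma covariate left 24 and 91, the macrophage covariate 26 and 100, leaving out anti-Ang2 1, 2 and 3 left 55 and 178, and leaving out anti-Ang2 4 and 5 gave 531 higher. The replicate block, fitted although the shared numbers did not pair the libraries (correlations of -0.125 to 0.113 between libraries of 1 number, none of which was closest to its own number), called 82 higher and 268 lower over all genes and 0 members, and the calls of Rragd, Rps6ka1 and Maf1 were lost (adjusted p = 0.0977, 0.0648 and 0.103). The Maf1 call was also lost without a filter on low counts (adjusted p = 0.0612) and without anti-Ang2 4 and 5 (0.0544). With 1 library left out, 82 to 326 genes were higher and 259 to 468 lower, no canonical member was called in any of these, and of the copies Rps4l was called without anti-Ang2 1 (log2 fold change -1.03, adjusted p = 0.032), and the median log2 fold change was 0.08 to 0.15 in the large and 0.08 to 0.13 in the small subunit. Of 330 values of 33 named members over 10 further settings, 309 kept direction and side of the threshold, 2 passed it under DESeq2 and 19 changed sign. Those were all close to 0 or poorly counted. Rpl7l1 turned to -0.0058 without a filter, -0.0071 under the block, -0.12 and -0.057 with the melanoma and macrophage covariates and -0.15 without anti-Ang2 1, 2 and 3. With the melanoma covariate Rpl22l1 was at 0.19, Rpl11 at 0.072, Rpl22 at 0.064, Rps13 at 0.15 and Rpl3l at -0.25; with the macrophage covariate Rpl11 was at 0.036. Without anti-Ang2 1, 2 and 3 Rpl22l1 was at 0.12, Rpl11 at 0.0013, Rpl22 at 0.0032, Rpl8 at -0.0096 and Rpl3l at -0.46. Rpsa was at 0.029 under limma-voom and 0.020 without anti-Ang2 4 and 5, where Rpl36a was at 0.0082. With 1 library left out, signs changed in the ranges of Rpl22l1 (-0.13 to 0.045), Rpsa (-0.19 to 0.12), Rpl3l (-0.095 to 0.98) and Rpl7l1 (-0.040 to 0.078). The cause was not tested. Depth limits the members under 5 CPM, 12 in each subunit.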
